A study of Homo sapiens with 12 samples.

Results

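Levels of 8 genes of the STAT and IRF families of transcription factors, *STAT2*, *STAT3*, *STAT6*, *IRF1*, *IRF2*, *IRF3*, *IRF7* and *IRF9*, were followed in RNA-seq of NCM460 cells. They were taken by gene name, and each matched 1 row of a table of 58735 genes. All 8 members passed a filter on a mean of at least 0.1 FPKM (fragments counted on a gene, scaled for its length and for the depth of the library), as did 18079 genes in all.

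NCM460 is a human line of normal colonic epithelial cells. The study asked how 5-OH-TMT, a quaternary ammonium derivative of bufotenine that the labels call Bufotenidine, and loss of HTRA2, a serine protease of mitochondria, act on cells exposed to the inflammatory cytokine TNF-α. The 12 libraries formed 4 groups of 3: WT cells in medium, WT cells with TNF-α, WT cells with TNF-α+Bufotenidine, and cells with the genotype HTRA2 knockdown, made with siRNA and also given TNF-α. All 4 groups were the same cell line. The labels give neither dose nor time, nor a control siRNA in the WT groups. The knockdown and the transfection therefore cannot be told apart in the labelled comparison. The paper sets its si-*HTRA2* cells against a group called si-*CTRL*, and no label carries that name. Whether a labelled group served as that control is not given. Whether the knockdown libraries carry 1 siRNA or several is not given in the sources used here. Nothing states that the libraries came from separate cultures, so the p-values measure the spread between these libraries, which may be technical.

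STATs rest in the cytoplasm until Janus kinases bound to cytokine receptors phosphorylate them, after which they pair and enter the nucleus. STAT2 joins IRF9 and another STAT in ISGF3, the complex that carries the signal of type I interferon to the interferon-stimulated response element of its target genes. STAT3 serves the IL-6 family of cytokines, oncostatin M among them, and STAT6 serves IL-4 and IL-13. IRF3 and IRF7 are phosphorylated by the kinases TBK1 and IKKε downstream of sensors of nucleic acids and then switch on interferon genes. IRF1 is made in response to interferon-γ and NF-κB and drives antigen presentation and guanylate-binding proteins, and IRF2 binds the same elements and can oppose it. Intestinal epithelium uses these factors in defence against viruses and bacteria and in repair. The RNA level of a factor is not its phosphorylation or nuclear activity, which were not measured here.

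In GRCh38, and on the minus strand where not said otherwise, *STAT2* lies on chromosome 12 from 56341597 to 56360155 and *STAT6* on the same chromosome from 57095408 to 57132139. *STAT3* lies on chromosome 17 from 42313324 to 42388568. *IRF1* lies on chromosome 5 from 132481609 to 132490798, and *IRF2* on chromosome 4 from 184387713 to 184474580. *IRF3* lies on chromosome 19 from 49659569 to 49665875, and *IRF7* on chromosome 11 from 612553 to 615999. *IRF9* is the exception in strand, on the plus strand, and occupies bases 24161053 to 24166565 of chromosome 14.

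RefSeq promoters (GRCh38.p14) were at hand for 5 of the 8 genes, *STAT2*, *STAT3*, *STAT6*, *IRF1* and *IRF9*. The 250 bases before the start were searched on both strands for the interferon-stimulated response element (GAAA, any 2 bases, GAAA), the gamma-activated sequence to which STAT dimers bind (TTCNNNGAA) and the NF-κB consensus. Over 35116 promoters of that length, 3.02% held the response element, 6.57% the gamma-activated sequence and 8.04% the NF-κB consensus. Only *IRF1* and *IRF9* held any match. The *STAT6* window, chr12:57110290-57110539, lies inside the gene as given above and not at its outermost 5' end, which was not searched. The stretches are shown because both genes were higher in the knockdown and because each carries the letters that STAT dimers bind. Capitals mark the matches: a gamma-activated sequence in each, and, further along in *IRF1*, the NF-κB consensus. The *IRF1* stretch is chr5:132490804-132490907, minus strand, at positions -134 to -31 relative to the start of transcription. The *IRF9* stretch is chr14:24161192-24161220, plus strand, at positions -73 to -45 relative to the RefSeq start, and it lies inside exon 1 of a longer *IRF9* transcript of GENCODE 29 that starts further upstream.
IRF1: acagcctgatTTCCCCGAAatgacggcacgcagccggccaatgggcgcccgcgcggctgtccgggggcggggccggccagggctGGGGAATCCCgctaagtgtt
IRF9: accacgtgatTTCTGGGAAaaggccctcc
In *IRF1* the gamma-activated sequence and the NF-κB match do not overlap. A match of letters does not show that a factor bound there, and the windows without a match were only 250 bases long.

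The libraries held 31008429 to 37624399 reads on genes. HTRA2 RNA was 14.5 ± 0.774 FPKM (SD, n = 3) with TNF-α and 7.28 ± 0.137 FPKM in the knockdown, a ratio of 0.502 (limma adjusted p = 2.77e-05). Of 11 markers of colonic epithelium 5 reached a mean of 1 FPKM: *EPCAM*, *CDH1*, *KRT8*, *KRT18* and *KRT19*. *CDX2* was at 0 in every library, and *VIL1*, *CDX1* and *MUC2* were at 0.00075, 0.0013 and 0.030 FPKM, so the line expressed general epithelial keratins without these intestinal genes. No leukocyte marker of 7 reached 1 FPKM, with *CD3E* at 0, and the sum of the 7 was 0.118 to 0.274 FPKM with TNF-α and 0.421 to 0.885 in the knockdown. Of 6 fibroblast markers only *COL1A1* reached 1 FPKM and *DCN* was at 0 (sum 1.001 to 1.32 with TNF-α and 2.63 to 3.24 in the knockdown), and of 4 endothelial markers only *CDH5* did and *KDR* was at 0 (1.42 to 1.57 and 2.21 to 3.62 FPKM). The part of these markers in the results was not tested. Mitochondrial genes took 2.95% of reads in knockdown replicate 2 and 3.69% to 4.68% in the other 11 libraries.

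The 8 genes are given here by level in 3 ranges, whose bounds were set for description only. *STAT6*, *IRF3*, *STAT3* and *STAT2* were abundant, and over all libraries their mean FPKM stood at the percentiles 92.4, 91.3, 90.6 and 88.1 of the genes tested. *IRF7*, *IRF1* and *IRF2* were intermediate, at the percentiles 85.1, 78.9 and 71.0. *IRF9*, the DNA-binding subunit of ISGF3, was at the percentile 21.6 with 13 to 22 reads per library in medium, so its values carry the largest counting error of the 8.

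**Figure D1:**
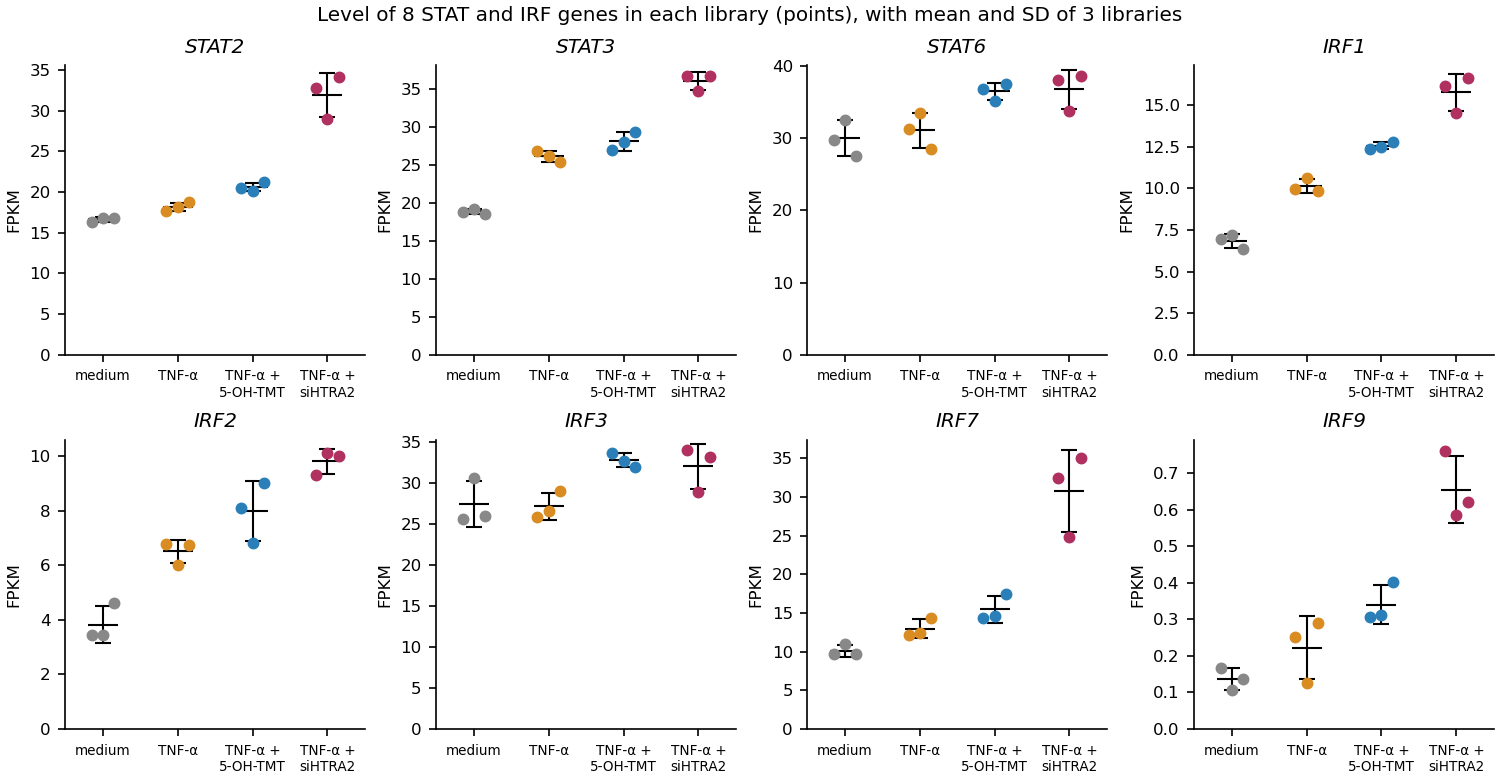
Level in FPKM of each of the 8 genes (vertical axes from 0, a scale per gene) in the 3 libraries of each group (points), with the mean and SD (black). The knockdown libraries of STAT2, STAT3, IRF1, IRF2, IRF7 and IRF9 lie above every library of the other 3 groups, whereas those of STAT6 and IRF3 overlap with the 5-OH-TMT libraries.

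*STAT3*, *IRF1* and *IRF2* rose with TNF-α, and none of the other 5 genes passed the threshold (limma, adjusted p under 0.05 over the 18079 genes). Thus 3 of 8 members were higher and 0 lower, while 3.22% of all tested genes were higher and 0.885% lower. The median log2 fold change of the 8 was 0.39, beside a median of -0.0020 over all tested genes. No member met the study's rule for a changed gene (a change of 2-fold or more and an unadjusted p of at most 0.05), which 1.76% of all tested genes met upward. The rule was applied here to the limma fold change and p, as the study does not name its test for RNA-seq. In 5 of 8 members the lowest TNF-α library exceeded the highest medium library, as for 11.1% of all tested genes.

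*STAT3* was at 18.8, 19.2 and 18.6 FPKM in medium and at 26.8, 26.2 and 25.4 FPKM with TNF-α. The groups were far apart relative to their spread, and the difference was 0.47 on the log2(FPKM + 0.1) scale (SE 0.056, limma adjusted p = 3.27e-04). *IRF1* was at 6.95, 7.22 and 6.38 FPKM in medium and at 9.97, 10.6 and 9.86 FPKM with TNF-α, a difference of 0.56 (SE 0.072, limma adjusted p = 6.16e-04). *IRF2*, which can oppose IRF1 at shared elements, rose with it. Its level was 3.43, 3.43 and 4.61 FPKM in medium and 6.77, 6.02 and 6.74 FPKM with TNF-α, the largest difference among the members called (0.77, SE 0.126, limma adjusted p = 0.00358).

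*STAT2* and *IRF9*, the subunits of ISGF3 among the 8 genes, did not pass the threshold with TNF-α. *STAT2* was at 16.3, 16.8 and 16.9 FPKM in medium and at 17.7, 18.2 and 18.7 FPKM with TNF-α, a small gap without overlap whose interval included 0 (0.13 on the log2 scale, 95% interval -0.019 to 0.27, limma adjusted p = 0.43). *IRF9* was at 0.167, 0.107 and 0.137 FPKM in medium and at 0.251, 0.127 and 0.290 FPKM with TNF-α, where replicate 2 fell among the medium libraries (0.42, 95% interval -0.136 to 0.966, limma adjusted p = 0.512). *IRF7*, itself a target of ISGF3, was at 9.65, 11.0 and 9.67 FPKM in medium and at 12.1, 12.4 and 14.4 FPKM with TNF-α. Its groups did not overlap, but its test missed the threshold (0.36, 95% interval 0.079 to 0.63, limma adjusted p = 0.18).

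*IRF3* and *STAT6*, both abundant before treatment, moved least. *IRF3* was at 25.6, 30.6 and 25.96 FPKM in medium and at 25.8, 26.6 and 28.98 FPKM with TNF-α (-0.01, 95% interval -0.196 to 0.175, limma adjusted p = 0.977). *STAT6* was at 29.8, 32.6 and 27.6 FPKM in medium and at 31.3, 33.5 and 28.6 FPKM with TNF-α (0.05, 95% interval -0.13 to 0.23, limma adjusted p = 0.845). Both pairs of groups overlapped, and the sign of either difference turned with single libraries left out. *STAT6* ranged from -0.0065 (without medium replicate 3) to 0.11 and was at -0.0023 without TNF-α replicate 2. *IRF3* ranged from -0.058 to 0.072 (without medium replicate 2) and was at 0.024 and 0.0027 without TNF-α replicates 1 and 2.

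When 5-OH-TMT was given with TNF-α, all 8 members had a higher mean than with TNF-α alone and none was called (limma, adjusted p under 0.05). By that threshold 0.0332% of all tested genes were called higher. The median log2 difference was 0.26, with 0.0 over all tested genes. At an unadjusted p under 0.05, 5 of 8 members were higher, beside 9.6% of all tested genes. In 7 of 8 members the lowest 5-OH-TMT library exceeded the highest library with TNF-α alone, beside 16.3% of all tested genes. No member met the study's 2-fold rule, which 0.686% of all tested genes met upward.

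*IRF1* came nearest to the threshold. Its level was 12.4, 12.5 and 12.8 FPKM with 5-OH-TMT, above all 3 TNF-α libraries, with a log2 difference of 0.31 (95% interval 0.148 to 0.464, limma adjusted p = 0.0946). *IRF3*, which TNF-α alone left within its spread, was at 33.6, 32.7 and 32.0 FPKM with 5-OH-TMT, again above every TNF-α library (0.27, 95% interval 0.087 to 0.459, limma adjusted p = 0.132). When only the 6 libraries of this comparison were fitted, *IRF1* and *IRF3* passed the threshold, with limma adjusted p of 0.0414 and 0.0470. That fit called 911 of all tested genes, in either direction, where the fit of 4 groups called 7.

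*STAT6*, the effector of IL-4 and IL-13, was at 36.9, 35.2 and 37.6 FPKM with 5-OH-TMT, with no library in common with the TNF-α range (0.23, 95% interval 0.054 to 0.414, limma adjusted p = 0.156). *STAT2* was at 20.5, 20.1 and 21.2 FPKM (0.18, 95% interval 0.034 to 0.325, limma adjusted p = 0.171). *IRF2* was at 8.10, 6.82 and 9.02 FPKM (0.28, 95% interval 0.0080 to 0.556, limma adjusted p = 0.239). These 3 genes did not overlap with TNF-α alone, and each missed the adjusted threshold.

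For the other 3 genes the interval included 0. *STAT3* was at 26.9, 28.0 and 29.4 FPKM, and its lowest library lay just above the highest TNF-α library (0.10, 95% interval -0.020 to 0.224, limma adjusted p = 0.329). *IRF7* was at 14.4, 14.6 and 17.5 FPKM and overlapped with TNF-α (0.25, 95% interval -0.024 to 0.529, limma adjusted p = 0.290). *IRF9* was at 0.307, 0.312 and 0.403 FPKM, or 41 to 55 reads (0.48, 95% interval -0.071 to 1.03, limma adjusted p = 0.312). Replicate 3 was the highest of the 5-OH-TMT libraries for 7 of 8 members. The intervals leave room for differences of up to 1.03 on the log2 scale in *IRF9* and up to 0.224 in *STAT3*.

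In the HTRA2 knockdown more members were called than in either other comparison. Against TNF-α, 6 of 8 members were higher (limma, adjusted p under 0.05) and 0 lower, beside 9.35% of all tested genes higher and 8.08% lower. The median log2 difference of the 8 was 0.61, and that of all tested genes was -0.0034. Only *IRF7* and *IRF9* met the study's 2-fold rule, as did 3.08% of all tested genes upward. In 7 of 8 members the lowest knockdown library exceeded the highest TNF-α library, as for 17.5% of all tested genes. In bulk RNA a change in the RNA of each cell and a change in the share of cells that express a gene cannot be told apart.

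On the log2(FPKM + 0.1) scale *STAT2*, *IRF9* and *IRF7* had the 3 largest differences of the 8. *STAT2* was at 32.9, 28.95 and 34.1 FPKM in the knockdown, 1.76 times the TNF-α mean, above every library of the other 3 groups (0.81, SE 0.067, limma adjusted p = 1.79e-05). *IRF7* was at 32.5, 24.8 and 35.03 FPKM, 2.37 times the TNF-α mean and with the widest spread of the knockdown group (1.23, SE 0.127, limma adjusted p = 6.73e-05). *IRF9* was at 0.760, 0.585 and 0.622 FPKM, or 80 to 104 reads against 15 to 41 with TNF-α, 2.94 times the TNF-α mean (1.26, SE 0.252, limma adjusted p = 0.00502). The size for *IRF9* depended on the constant added before the log, at 0.44 with a constant of 1 and 1.58 with 0.01, and with the constant of 1 it was below those of *IRF1* (0.59), *IRF2* (0.52) and *STAT3* (0.45). Its limma adjusted p was 0.00116 to 0.0289 over all settings that gave a value. The study also displayed *IRF9* among its knockdown genes, a choice made on these libraries.

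*IRF1* was at 16.2, 14.5 and 16.6 FPKM in the knockdown, 1.55 times the TNF-α mean (0.63, SE 0.072, limma adjusted p = 1.46e-04). *IRF2* was at 9.29, 10.1 and 10.01 FPKM, 1.51 times (0.58, SE 0.126, limma adjusted p = 0.00751). *STAT3* was at 36.7, 34.7 and 36.7 FPKM, 1.38 times (0.46, SE 0.056, limma adjusted p = 2.01e-04). These 3 genes, which had risen with TNF-α, were higher again in the knockdown, and their libraries did not overlap with any other group.

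*STAT6* and *IRF3* were not called. *STAT6* was at 38.1, 33.7 and 38.7 FPKM in the knockdown, with its lowest library just above the highest TNF-α library (0.24, 95% interval 0.063 to 0.423, limma adjusted p = 0.0633). *IRF3* was at 34.1, 28.9 and 33.1 FPKM, and its lowest library overlapped with TNF-α (0.24, 95% interval 0.050 to 0.422, limma adjusted p = 0.0784). The low library was replicate 2 in both, the one with the lowest mitochondrial share, and it was the lowest of the knockdown group for 7 of 8 members. The part of the mitochondrial share in these values was not tested. Without this library *STAT6* was at 0.30 (limma adjusted p = 0.0264) and *IRF3* at 0.31 (0.0248), both past the threshold. The exact two-sided permutation test of 3 libraries against 3 cannot go below 0.1, the value it gave for every member whose groups did not overlap, in all 3 comparisons.

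**Figure D2:**
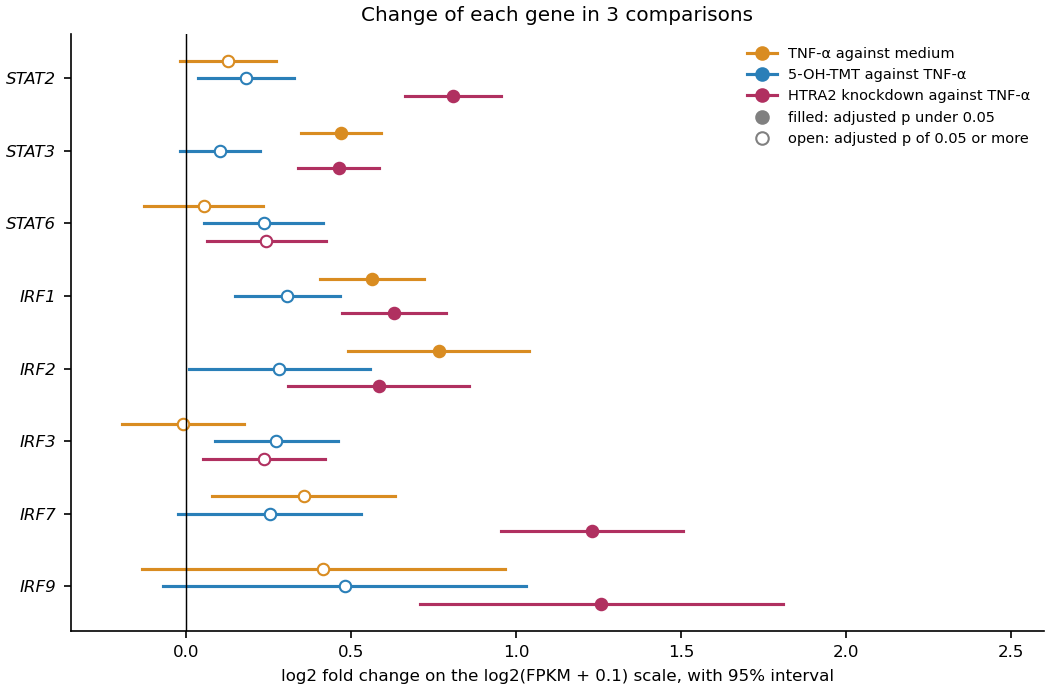
Difference of each gene on the log2(FPKM + 0.1) scale with its 95% interval in 3 comparisons (colours), filled where the limma adjusted p was under 0.05. Filled points number 6 for the knockdown, 3 for TNF-α and 0 for 5-OH-TMT, and IRF7 and IRF9 lie farthest to the right, at 1.23 and 1.26.

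Across the 4 groups the mean levels followed the order medium, TNF-α, 5-OH-TMT and knockdown for 7 of 8 members. Neither this order nor the overlaps between its neighbours were counted over all tested genes, so they describe these 8 genes only. For *STAT2*, *STAT3*, *IRF1* and *IRF2* no neighbouring groups in that order overlapped. For *STAT6*, medium overlapped with TNF-α and 5-OH-TMT with the knockdown. *IRF7* overlapped between TNF-α and 5-OH-TMT, and *IRF9* between medium and TNF-α. *IRF3* had the order TNF-α, medium, knockdown and 5-OH-TMT, and all its neighbours overlapped. From medium to the knockdown the ratio of means ran from 1.17 (*IRF3*) and 1.23 (*STAT6*) through 1.91 (*STAT3*), 1.92 (*STAT2*), 2.30 (*IRF1*) and 2.56 (*IRF2*) to 3.05 (*IRF7*) and 4.78 (*IRF9*). The 5-OH-TMT and knockdown comparisons share the TNF-α libraries, so a low or high TNF-α library moves both.

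Some members share exonic bases with other genes, and the reads there may be split or left uncounted. Of the *IRF9* bases 48.4% (1838) also belong to *AL136295.5* on the same strand, which itself had 4 to 8 reads per library in medium, 12 to 17 with TNF-α, 16 to 49 in the knockdown and 13 to 35 with 5-OH-TMT. The low level of *IRF9* is therefore uncertain. *IRF1* shares 22.003% (1716 bases) with *C5orf56* on the opposite strand, whose mean FPKM was 0.305 in medium, 0.431 with TNF-α, 1.02 in the knockdown and 0.575 with 5-OH-TMT. *IRF3* shares 19.3% (734 bases) with *BCL2L12* on the opposite strand, which had 25.8, 26.7, 23.9 and 27.2 FPKM in the same order of groups. *STAT6* shares 1.75% (128 bases) with *NAB2* and *LRP1*, and *STAT2*, *STAT3*, *IRF2* and *IRF7* share none.

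**Figure D3:**
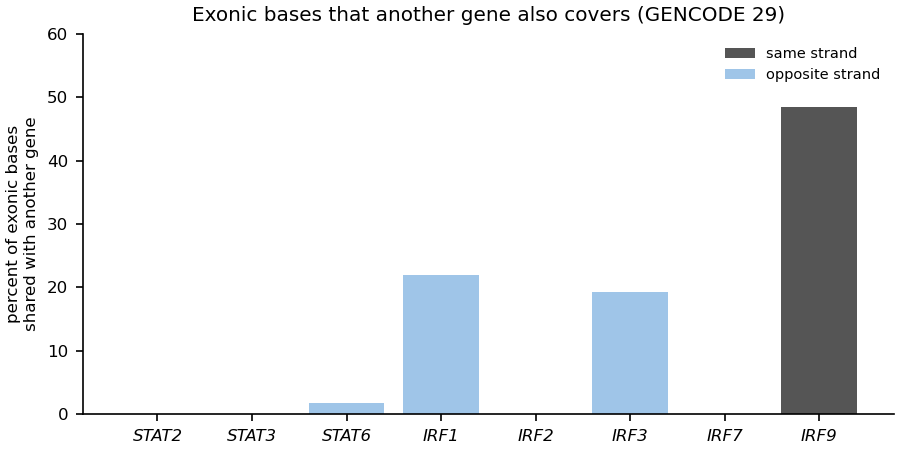
Percent of the exonic bases of each gene (vertical axis) that another gene of GENCODE 29 also covers, on the same strand (dark) or the opposite strand (light). IRF9 shares 48.4% on its own strand and IRF1 22.003% and IRF3 19.3% on the opposite strand, and the bars of 4 genes are at 0.

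The genes around these factors were read from lists by role. At the cell surface, 4 of 13 tested receptors for interferons and for the cytokines that act through STAT3 and STAT6 were higher with TNF-α (limma, adjusted p under 0.05), 0 of 13 were called with 5-OH-TMT, and 4 of 13 were higher in the knockdown. In the same order, 3.22%, 0.0332% and 9.35% of all tested genes were higher. The median log2 differences were 0.24, -0.02 and 0.29. The chains of the interferon-γ receptor rose in both comparisons. *IFNGR2* was at 24.3 ± 1.09 FPKM in medium, 47.2 ± 2.87 with TNF-α and 80.3 ± 2.35 in the knockdown (SD, n = 3 each). *IFNGR1* was at 7.50 ± 0.532, 12.1 ± 0.250 and 20.6 ± 0.783 FPKM, and *OSMR*, the oncostatin M receptor upstream of STAT3, at 24.2 ± 2.04, 33.6 ± 1.25 and 43.9 ± 0.485 FPKM. The remaining receptor called was *IFNAR1*, of type I interferon, with TNF-α and *IL13RA1*, upstream of STAT6, in the knockdown, both named after their values were seen.

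Of 15 kinases and adaptors that activate STATs or IRFs, 3 were higher with TNF-α, 0 were called with 5-OH-TMT, and 4 were higher and 1 lower in the knockdown (medians 0.09, 0.06 and 0.30). In the knockdown these are 26.7% higher and 6.67% lower, beside 9.35% and 8.08% of all tested genes. The 3 of 15 higher with TNF-α stand beside 3.22% of all tested genes. *IKBKE*, which encodes IKKε, rose with TNF-α from 4.57 ± 0.299 to 14.7 ± 1.47 FPKM (log2 difference 1.66, SE 0.119), and was at 21.1 ± 3.46 FPKM in the knockdown (0.52, SE 0.119, limma adjusted p = 0.0106). *TICAM1*, the adaptor of Toll-like receptor 3, rose in both comparisons, at 9.36, 15.6 and 21.6 FPKM in the medium, TNF-α and knockdown groups. *TRAF3*, which links such adaptors to TBK1, rose with TNF-α from 6.80 to 13.6 FPKM. *IRAK1*, a kinase downstream of Toll-like and interleukin-1 receptors, fell by 0.49 on the log2 scale in the knockdown, from 217 ± 20.6 to 155 ± 21.2 FPKM (limma adjusted p = 0.00870). *JAK1* and *MYD88*, named after their values were seen, were the other kinase and adaptor that were higher in the knockdown.

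Of 21 negative regulators, 2 were higher with TNF-α, *SOCS3* (0.43) and *IRF2BP2* (0.44), 0 were called with 5-OH-TMT, and 3 were higher and 1 lower in the knockdown (medians 0.03, 0.06 and -0.03). With TNF-α 9.52% were higher, beside 3.22% of all tested genes. With 14.3% higher and 4.76% lower in the knockdown, beside 9.35% and 8.08% of all tested genes, these few calls describe single genes and not the list. The 3 that rose in the knockdown were *USP18*, which restrains the type I interferon receptor, from 3.70 ± 0.512 to 11.5 ± 1.03 FPKM, *TRIM21*, a ubiquitin ligase that acts on IRFs, from 9.76 ± 0.688 to 20.2 ± 2.35 FPKM, and *SOCS1*, an inhibitor of Janus kinases, from 1.26 ± 0.0989 to 2.58 ± 0.397 FPKM. The 1 that fell was *SOCS2*, also named after its value was seen. Of 8 other genes of the STAT and IRF families 6 were tested, and of these 3 were higher with TNF-α, 0 were called with 5-OH-TMT and 3 were higher in the knockdown (medians 0.35, 0.07 and 0.53).

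Targets of ISGF3 rose together in the knockdown: 34 of 34 tested were higher (median log2 difference 1.19), beside 9.35% of all tested genes. With TNF-α 8 of 34 were higher (median 0.38), beside 3.22%, and 0 were called with 5-OH-TMT (median 0.06). The list was chosen with earlier results of these data known, so the counts describe it and are not independent support. *OAS2*, an antiviral synthetase, went from 2.55 ± 0.334 FPKM with TNF-α to 19.9 ± 1.26 in the knockdown (2.92, SE 0.117, limma adjusted p = 2.59e-07). *RSAD2*, the antiviral viperin, went from 1.48 ± 0.150 to 10.2 ± 0.111 FPKM, and *OAS1* from 4.50 ± 0.600 to 29.2 ± 5.27 FPKM. With TNF-α against medium, *OAS1* rose by 0.99, *OAS3* by 0.96 and *PARP14* by 0.87 on the log2 scale.

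Among the targets of IRF1, 13 of 23 tested were higher with TNF-α (median 0.64), beside 3.22% of all tested genes. In the knockdown 20 of 23 were higher (median 1.01), beside 9.35%, and 0 were called with 5-OH-TMT (median 0.23). This list too was chosen with earlier results of these data known. *GBP1*, a guanylate-binding protein, rose with TNF-α from 2.75 ± 0.0609 to 9.54 ± 0.891 FPKM. *CXCL10*, a chemokine for T cells, had 0 reads in every medium library and 9 to 21 with TNF-α, which is at least 5.35-fold higher against a floor of 3 reads per library. It was at 5.14 ± 1.06 FPKM in the knockdown against 0.413 ± 0.182 with TNF-α (3.41, SE 0.345, limma adjusted p = 6.13e-05). *GBP4* and *GBP2* were higher in the knockdown by 2.89 and 2.30 on the log2 scale.

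Of the targets of STAT3, 7 of 14 tested were higher with TNF-α (median 0.32), beside 3.22% of all tested genes. In the knockdown 7 of 14 were higher (median 0.36), beside 9.35%, and 0 were called under 5-OH-TMT (median 0.09). *BCL3*, an NF-κB cofactor, rose with TNF-α from 7.28 ± 1.40 to 17.8 ± 0.931 FPKM, and *CCND1*, a cyclin, by 0.56 on the log2 scale. *LCN2*, which binds bacterial siderophores, was at 10.9 ± 1.49 FPKM in medium, 21.6 ± 6.57 with TNF-α and 173 ± 47.9 in the knockdown (3.00 against TNF-α, SE 0.229, limma adjusted p = 1.42e-05). *CEBPD* and *JUNB* rose by 0.45 and 0.41 in the knockdown. Of 6 tested targets of STAT6, 0 were called with TNF-α or 5-OH-TMT (medians -0.17 and 0.35). In the knockdown 2 were higher (33.3%, median 0.47), beside 9.35% of all tested genes. They were the chemokine genes *CCL17* (2.15) and *CCL22* (1.26), both of which the study also displayed from these libraries. Several targets are shared by ISGF3, IRF1 and NF-κB, so no list reads out a single factor.

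**Figure D4:**
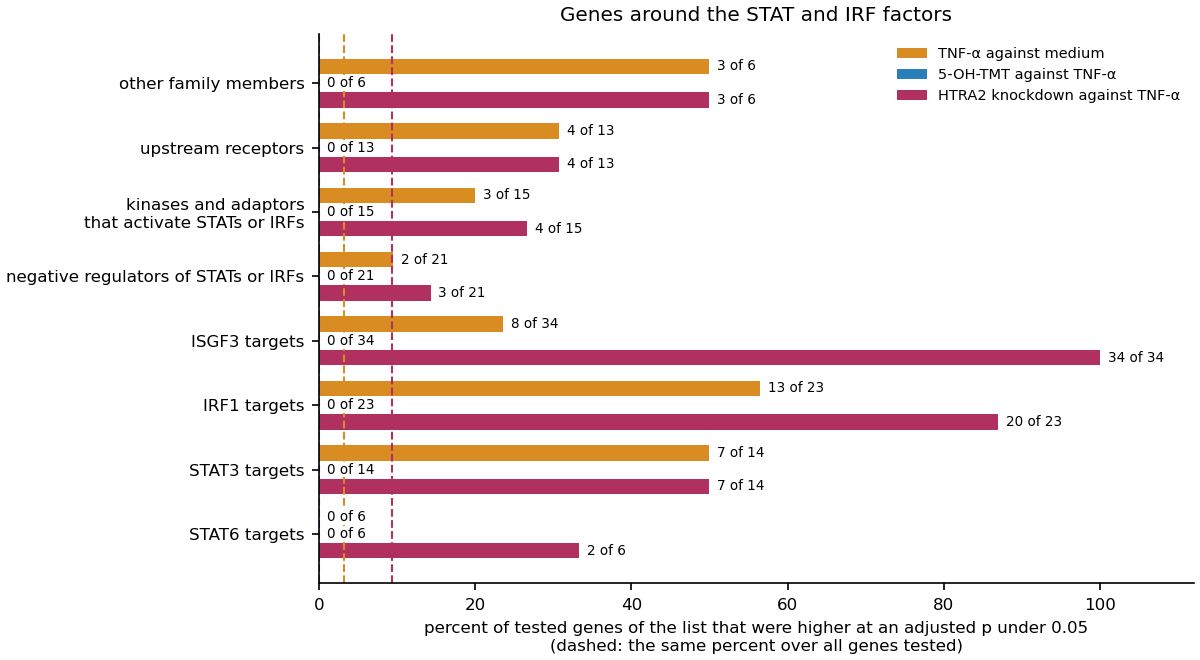
Percent of the tested genes of each list (bars, horizontal axis from 0) that were higher at an adjusted p under 0.05 in 3 comparisons (colours), with dashed lines at the same percent of all tested genes with TNF-α (3.22%) and in the knockdown (9.35%). The bar of ISGF3 targets reaches 34 of 34 in the knockdown and 8 of 34 with TNF-α, and no list has a gene called higher with 5-OH-TMT.

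The genes most like each member across the 12 libraries were found by the Pearson correlation of log2(FPKM + 0.1) among genes with a mean of at least 1 FPKM, and the libraries of a group share its treatment, so these values describe mainly the group means. *STAT2* was closest to *IFI27* (0.991), *IRF7* (0.989) and *MX1* (0.989), all genes known to respond to interferon. *IRF7* was closest to *LCN2* (0.993), *COL6A1* (0.990) and *STAT2* (0.989). *STAT3* was closest to *C3* (0.996), *PARP12* (0.995) and *ICAM1* (0.995), which encode a complement factor, an ADP-ribosyltransferase and an adhesion molecule.

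*IRF1* was closest to *TAP1* (0.993), the peptide transporter of antigen presentation, followed by *NECAP2* (0.991) and *CD82* (0.991). *STAT6* was closest to *FAM83G* (0.975), *TYK2* (0.974), a Janus kinase, and *PLXNB2* (0.970). The closest to *IRF2* were *CCDC71L* (0.979), *ZFP57* (0.977) and *MTSS1* (0.975), those to *IRF3* were *SLC39A13* (0.970), *ZDHHC1* (0.962) and *FBXW4* (0.956), and those to *IRF9* were *BTN3A3* (0.974), *CDKN2B* (0.972) and *COL7A1* (0.969). Only *STAT2* and *IRF7* had each other among their 3 closest genes.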

How the data were processed

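The deposited values are FPKM of every gene in every library, computed by the authors from poly(A)-selected RNA. The submitters' processing notes name CASAVA 1.8, HISAT2 2.0.4, HTSeq 0.9.1 and hg38, and 99.98% of the gene coordinates equal those of GENCODE 29. The mode and strand setting of the counting, and the divisor of the FPKM, are not given in the sources used here. The kit as described marks no strand. Every value came out as a whole number of reads (tolerance 0.01) when multiplied by gene length and the step of its library, which gave the depths.

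Genes with a mean of 0.1 FPKM or more (18079) entered a linear model on log2(FPKM + 0.1) with 1 mean for each of 4 groups (R 4.3.3, limma 3.58.1, eBayes with trend, 8 residual degrees of freedom), with 3 two-sided contrasts and Benjamini-Hochberg adjustment over the genes tested. An adjusted p under 0.05 was a call, and the study's own rule (a fold change of at least 2, unadjusted p of at most 0.05) was counted beside it. That rule was applied to the limma p and the difference of log2(FPKM + 0.1), so its counts are not those of the study. The script was tested on simulated data. The exact permutation test compared mean log2 values of 3 libraries against 3. Between replicates, chi-squared per degree of freedom of the reads was 7.35 to 45.4, above counting error. The highest values, 35.0 and 45.4, came from the pairs with knockdown replicate 2, whereas knockdown replicates 1 and 3 gave 7.35.

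The members and lists were chosen with earlier results of these data known. Named are the 8 members, HTRA2, markers, the 3 genes most like each member, and of each list up to 3 genes with the largest absolute log2 difference among those called with a mean of at least 1 FPKM. *IFNAR1*, *IL13RA1*, *JAK1*, *MYD88* and *SOCS2* fall outside this rule and were named, after their values were seen, to complete counts of 5 or fewer. Single genes of the list of other family members are not reported here. Genes that share exonic bases with members were named for that reason. Promoter sequences came from RefSeq (GRCh38.p14). The alternatives were pseudocounts of 1 and 0.01, no filter and a stricter one, other scalings, a fit to the compared groups, no trend, a replicate block, voom on the recovered reads, and each library left out in turn.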

Additional observations from a re-analysis of the deposited data

How the results depend on the processing

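Of the 8 members, 3 were called with TNF-α under each of 10 other settings and in each of 6 fits without a library. With 5-OH-TMT 0 were called, except 2 (*IRF1* and *IRF3*) in the fit to only the 2 groups compared. The cause was not tested. In the knockdown 6 to 8 were called. *STAT6* passed the threshold there under a filter of a mean of at least 1 FPKM (limma adjusted p = 0.0476), quantile normalization (0.0240) and voom (0.0169), and *IRF3* under quantile normalization (0.0295) and voom (0.0462). The filter of 1 FPKM gave no value for *IRF9*, whose knockdown difference was 1.02 to 1.41 with a library left out. With TNF-α the sign of the smallest differences turned without single libraries, within -0.0065 to 0.11 for *STAT6* and -0.058 to 0.072 for *IRF3*. With the replicate number as a block, 3, 0 and 6 members were called, as without it. Same-numbered deviations correlated by 0.0647 to 0.151 with TNF-α, -0.0505 to 0.0902 with 5-OH-TMT and -0.212 to 0.108 in the knockdown. In the same order, 6, 3 and 2 of 6 libraries correlated best with their own number. With TNF-α the correlations were low but all 6 libraries matched, so a weak pairing with medium remains possible. Fewer libraries matched with 5-OH-TMT and in the knockdown. With 3 correlations per comparison, these values cannot decide whether the numbers pair the libraries. Over all genes, 7 were called with 5-OH-TMT, 127 under the filter of 1 FPKM, 236 under voom and 911 in the fit to 2 groups. Few reads, 13 to 22 in medium, limit *IRF9* only, and reads on its shared exonic bases may have been left uncounted.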
